A study of Bos taurus
Mus musculus and Bos taurus and Mus musculus with 5 samples.

Results

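Genes that copy the genome in S phase were followed in cells that hold a bovine and a mouse nucleus side by side. The set of 47 gene names was given by a list of the DNA replication machinery and its closest suppliers and regulators. Every entry of the bovine and the mouse read table with a listed name, ignoring case, was taken, and reads were summed by name. The bovine table of 13923 genes held 41 of the 47 names, and the mouse table of 24543 genes held all 47. The rule used names alone, and the list was drawn up with earlier results of these data known.

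The cells were heterokaryons, made by fusing bovine fetal fibroblasts (bFF) with mouse embryonic stem cells (mESC) in polyethylene glycol for 2 min after 4 h of co-culture. Sampling took place at 24, 48 and 72 h, the controls were bFF and mESC that had not been fused, and each of these 5 groups was 1 library made from 200 sorted cells. All bFF came from the same male fetus and were grown at 38.5 °C in fibroblast medium with 10% serum. The mESC were of a C57BL/6 line and grew at 37 °C on irradiated mouse feeder fibroblasts, in medium with 15% serum, the cytokine ESGRO, 1 µM PD0325901 (a MEK inhibitor) and 3 µM CHIR99021 (a GSK3 inhibitor). After fusion the cells stayed at 37 °C in the stem cell medium without the inhibitors, so fusion cannot be told apart from the change of medium, of temperature for the bovine nucleus, and of neighbouring cells. Whether the unfused controls were taken through co-culture or polyethylene glycol is not given in the sources used here.

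Before S phase, the origin recognition complex (ORC) with CDC6 and CDT1 loads the ring of MCM2 to MCM7 onto DNA. CDC45 and the GINS complex then turn that ring into the active helicase, RPA coats the single strands, primase and the polymerases copy them, and replication factor C (RFC) places the sliding clamp PCNA. Nucleotides are supplied by ribonucleotide reductase and other enzymes, and many of these genes are transcribed under E2F and MYB family factors, in embryonic stem cells through most of a short cell cycle.

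Bovine depth was 2634269 reads in bFF and 982769 to 1541793 in the heterokaryons, and mouse depth was 3446461 reads in mESC and 1731084 to 2427089 in the heterokaryons. Levels are given as RPM, a gene's reads scaled to the total of its species' column. A floor of 3 reads, set for counts of 0, was worth 1.14 RPM in bFF and 1.95 to 3.05 RPM in the bovine columns of the heterokaryons. The labelled cell types carried their markers: 12 of 12 fibroblast genes had bovine reads in bFF and 10 of 10 stem cell genes had mouse reads in mESC. Bovine fibroblast markers summed to 38138 RPM in bFF and to between 19303 and 21951 RPM in heterokaryons. Of 3 bovine blood markers only HBA, a haemoglobin chain, had reads in heterokaryons, where the list summed to 91.6, 66.8 and 48.6 RPM at 24, 48 and 72 h, and all 3 were at 0 in bFF. Of 3 bovine endothelial markers CDH5 and KDR were at 0 in bFF, and the list summed to 1.14 RPM there and to between 1.95 and 12.2 RPM in heterokaryons. In mouse reads the endothelial list summed to 120 RPM in mESC itself and to 44.9, 63.0 and 99.1 RPM in heterokaryons, so it does not single out endothelium here. Bovine reads of stem cell markers summed to 11.8 RPM in bFF and to 80.4, 42.8 and 35.7 RPM in heterokaryons. Mouse fibroblast markers, which the feeder cells would carry, summed to 22.9 RPM in mESC, where COL1A2, COL3A1, PDGFRB, THY1, LUM, POSTN and TWIST2 were at 0, and to 174, 83.8 and 64.3 RPM in heterokaryons, with 6 or 7 of 12 markers detected. Whether blood, endothelial or feeder cells were present in the libraries was not tested, nor was any part of theirs in the results below. A control of the other species lent a few reads to each table, 61069 mESC reads in the bovine table, of which 30 fell on replication genes, and 48480 bFF reads in the mouse table, of which 64 did.

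Replication transcripts of the bovine nucleus were higher after fusion. The 41 bovine genes summed to 1534 RPM in bFF and to 3092, 2381 and 2773 RPM in the heterokaryons at 24, 48 and 72 h. Every heterokaryon library thus lay above bFF, by 2.02-fold (95% counting interval 1.92 to 2.11), 1.55-fold (1.48 to 1.63) and 1.81-fold (1.73 to 1.89). In libraries of whole cells, more RNA per cell and more cells with that RNA cannot be told apart.

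Gene by gene, the 3 heterokaryon libraries were tested together against bFF with edgeR's quasi-likelihood test and Benjamini-Hochberg adjustment over all 7376 bovine genes with at least 10 CPM, counts scaled by effective library size, in any library. Because no group had a second culture, these p-values measure the spread between libraries of different times. Of the 41 bovine genes, 38 passed the filter, 16 of them only through their level in heterokaryons. MCM4, MCM5, CDC45, RRM2, TK1, DUT and MYBL2 rose and none fell, that is 7 of 38, while 4.37% of all genes tested were called higher and 4.77% lower. At an unadjusted p under 0.05, 17 were higher and 2 lower by edgeR, against 834 and 942 of all 7376 genes tested. DESeq2 also called 7 of the replication genes higher and 0 lower. Log2 changes were above 0 for 36 and below 0 for 2, RPA1 and ORC6, with a median of 0.99 against −0.03 over all genes tested. RLE scaling and DESeq2 gave the same counts of signs. With library totals alone, 35 of 37 testable genes were above 0, with a median of 0.90 against −0.14. With the filter applied to bFF alone, an alternative chosen after seeing the data, 22 of the genes were testable, 4 rose (DUT, RFC2, RRM2 and TK1) and none fell, against 3.52% higher and 5.64% lower of 6413 genes. The median of those 22 was 0.75, against −0.14 over all genes in that fit. Leaving out the 24 h library changed the count most, to 15 higher and 2 lower of 37, but that setting also raised the calls over all genes to 11.6% higher and 12.9% lower.

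**Figure D1:**
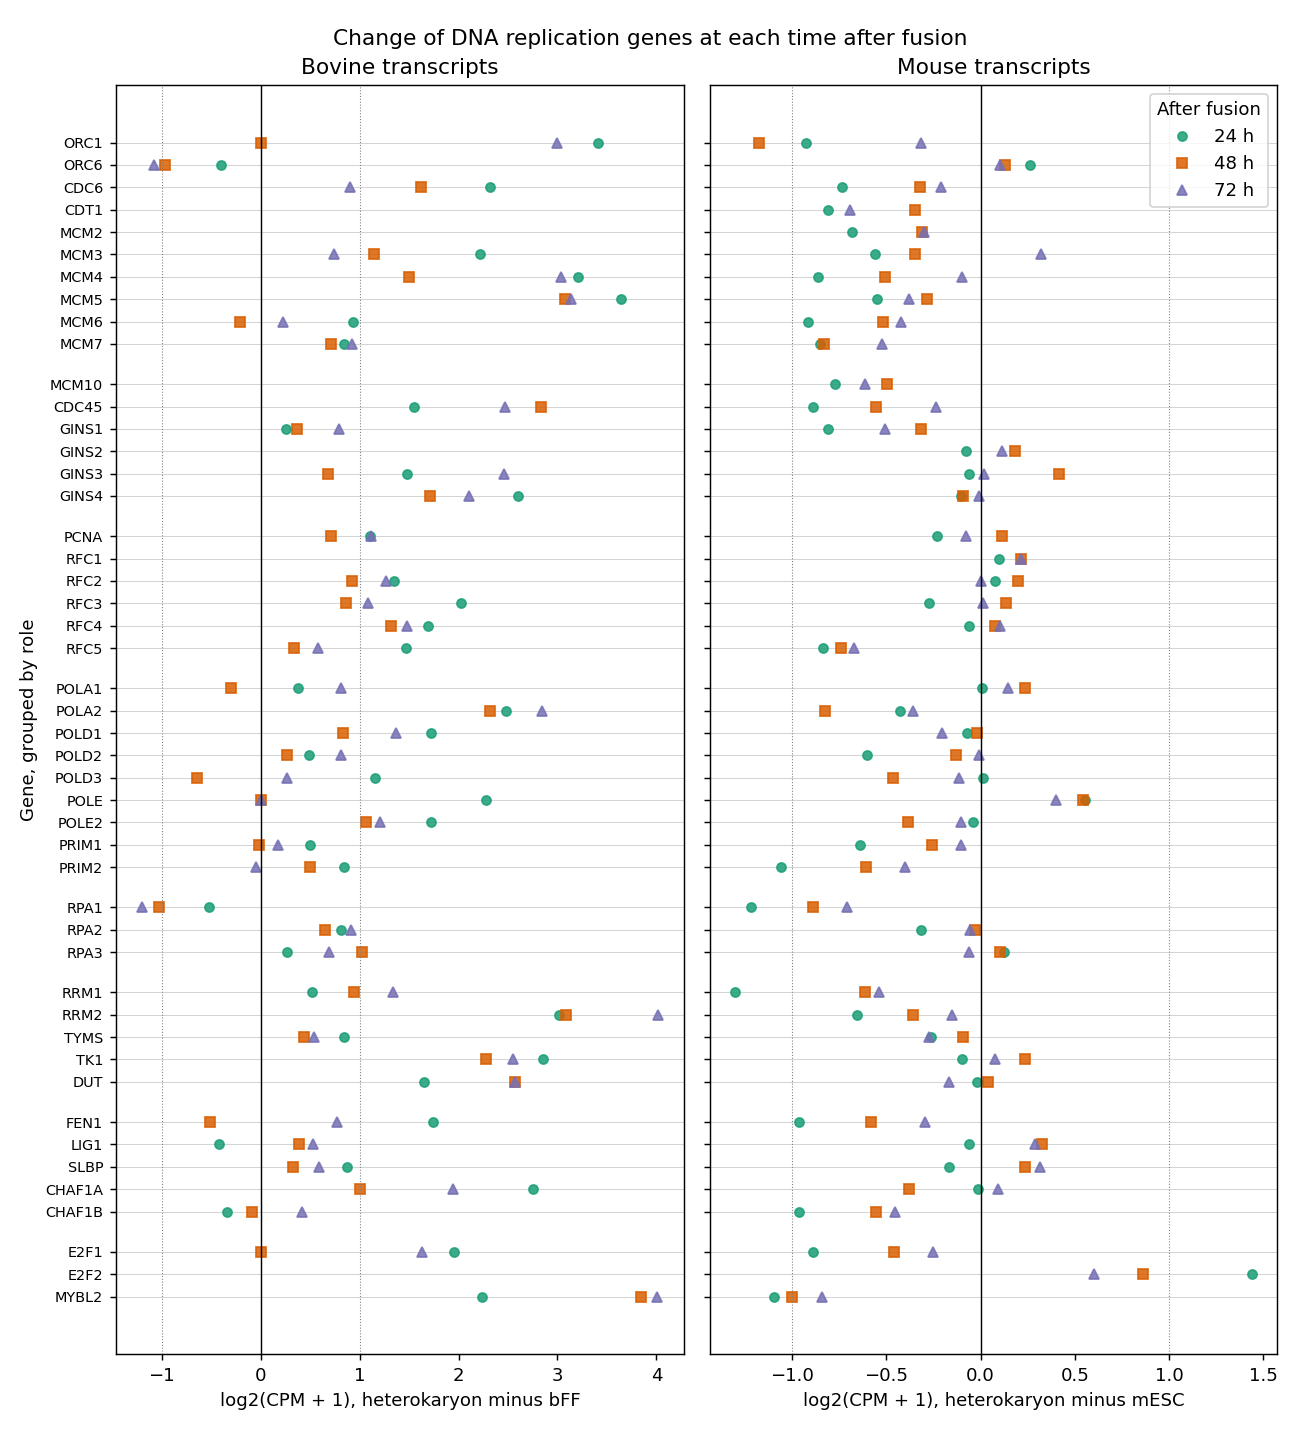
Change of each replication gene at 24, 48 and 72 h, as log2(CPM + 1) in the heterokaryon library minus the same in bFF (left, bovine transcripts) or mESC (right, mouse transcripts), with genes on the vertical axis grouped by role and dotted lines at 2-fold. Bovine points lie mostly to the right of 0, with RPA1 and ORC6 to the left at all 3 times, and most mouse points lie to the left of 0 on a narrower scale. Names with no bovine point are not in the bovine table.

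Among the genes that load the helicase, 2 of 7 tested rose, against 4.37% of all genes tested. MCM4 and MCM5, the 2 that rose, were under 10 CPM in bFF, as were MCM3 and CDC6. These genes entered the test only through heterokaryons, which favours a rise. MCM5, a subunit of the helicase ring (chromosome 5, start 73990719 on bosTau8), stood at 5.31 RPM in bFF and at 78.4, 48.0 and 48.6 RPM at 24, 48 and 72 h. All 3 heterokaryon libraries were far above bFF, with a log2 change of 3.52 ± 0.51 (SE) and an adjusted p of 0.00163 by edgeR. MCM4 (chromosome 14, start 21164877), another subunit of the ring, read 4.56 RPM in bFF and 50.9, 13.5 and 39.6 RPM after fusion. It was lowest of the heterokaryons at 48 h and still above bFF there, with a log2 change of 2.99 ± 0.74 and an adjusted p of 0.0247 by edgeR. The other ring subunits did not pass: the log2 change was 1.59 for MCM3 (adjusted p = 0.175 by edgeR), 0.85 for MCM7 (0.206) and 0.39 for MCM6 (0.61). Bovine MCM7 also drew 8 reads from the mESC control, from which 12% of its 24 h reads were estimated to be mouse reads wrongly assigned. MCM6 stood at 97.2 RPM in bFF and at 186, 76.6 and 101 RPM afterwards, so its 48 h library lay below bFF.

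The loader subunits differed in direction. CDC6, which brings the ring to the origin, read 3.04 RPM in bFF and 19.3, 10.5 and 5.84 RPM in heterokaryons, with a log2 change of 1.99 ± 0.98 (adjusted p = 0.241 by edgeR). ORC6, the smallest subunit of the origin complex, went from 93.0 RPM in bFF to 70.2, 42.8 and 38.3 RPM. All heterokaryon values were below bFF, with a log2 change of −0.81 ± 0.36 that did not pass (adjusted p = 0.197 by edgeR). It passed when the 24 h library was left out, at −1.05 and an adjusted p of 0.0048 by edgeR, in the setting that called 12.9% of all genes lower. ORC1, the subunit that binds ATP and origins, had 0 reads in bFF, 10 at 24 h, 0 at 48 h and 10 at 72 h, and stayed under the filter. MCM2 and CDT1 are not in the bovine table and were not analysed here.

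Of the 4 helicase activators tested, CDC45 rose, against 4.37% of all genes tested. CDC45, GINS3 and GINS4 were under 10 CPM in bFF and entered the test only through heterokaryons, which favours a rise. CDC45, which joins the ring to form the moving helicase (chromosome 17, start 74732075), stood at 4.18 RPM in bFF and at 14.2, 33.0 and 24.6 RPM in heterokaryons. The lowest heterokaryon value, at 24 h, rested on 14 reads and the bFF value on 11. The log2 change was 2.64 ± 0.71 with an adjusted p of 0.0359 by edgeR. The call was lost with scaling by library totals alone (adjusted p = 0.0511 by edgeR) and without the 48 h library (0.141). GINS4, one of the 4 GINS subunits, read 3.80 RPM in bFF and 28.5, 13.5 and 17.5 RPM after fusion, all above bFF, with a log2 change of 2.43 ± 0.71 and an adjusted p of 0.0515 by edgeR. GINS1 had the smallest change, from 53.5 RPM to 64.1, 63.1 and 82.4 RPM (log2 change 0.50, adjusted p = 0.45 by edgeR). GINS3 had only 3 reads in bFF and 3 to 15 in heterokaryons, too few for a narrow estimate. MCM10 and GINS2 are not in the bovine table.

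None of the 5 clamp and loader genes passed, although every one was above bFF in all 3 libraries and 4 had an unadjusted p under 0.05 by edgeR. RFC2 came nearest, with 46.3 RPM in bFF and 120, 81.1 and 99.9 RPM in heterokaryons, a log2 change of 1.21 ± 0.36 and an adjusted p of 0.0521 by edgeR. RFC3 went from 37.2 RPM to 155, 62.3 and 70.7 RPM (log2 change 1.43 ± 0.47, adjusted p = 0.0793 by edgeR). RFC4 went from 10.6 RPM to 36.6, 25.5 and 27.9 RPM (1.58 ± 0.50, adjusted p = 0.0682 by edgeR). PCNA, the clamp itself, stood at 137 RPM in bFF and at 298, 205 and 263 RPM, with a log2 change of 0.99 ± 0.32 and an adjusted p of 0.0741 by edgeR. RFC5 had the smallest change, from 62.3 RPM to 175, 72.1 and 82.4 RPM, and was well above bFF only at 24 h. Without the 24 h library RFC2, RFC3, RFC4 and PCNA all passed, with adjusted p-values of 0.00211, 0.0171, 0.0245 and 0.00649 by edgeR, in the setting that called 11.6% of all genes higher. RFC1 is not in the bovine table.

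None of the 8 polymerase and primase genes tested passed, and their log2 changes ran from 0.24 to 3.30 with a median of 0.52 and 1 unadjusted p under 0.05. POLA2, the regulatory subunit of the primer-making polymerase, had the largest change but rested on 3 reads in bFF against 11, 12 and 20 in heterokaryons. Its ratio to bFF at 72 h was 12.9 with a counting interval of 3.83 to 67.8, and the edgeR adjusted p was 0.0835. POLE2, an accessory subunit of the leading-strand polymerase, went from 4.18 RPM to 16.3, 9.01 and 9.73 RPM (log2 change 1.54 ± 0.86, adjusted p = 0.305 by edgeR). PRIM1, the catalytic primase, had the smallest change, with 28.5 RPM in bFF and 40.7, 25.5 and 28.5 RPM in heterokaryons, where the values at 48 and 72 h lay at the bFF level. POLE, the catalytic subunit of the leading-strand polymerase, had 4 reads at 24 h and none in the other 3 libraries.

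The 3 subunits of RPA, the single-strand binding complex, differed in direction. RPA1, the largest subunit, went from 204 RPM in bFF to 142, 90.8 and 77.8 RPM, while RPA2 stood at 70.6 RPM in bFF and at 125, 101 and 118 RPM. RPA3, the smallest subunit, read 169 RPM in bFF and 204, 315 and 243 RPM in heterokaryons. All heterokaryon values were below bFF for RPA1 and above it for RPA2 and RPA3, but none passed: the log2 changes were −0.90 ± 0.32, 0.80 ± 0.33 and 0.70 ± 0.35, with edgeR adjusted p-values of 0.107, 0.152 and 0.242. Without the 24 h library RPA1 passed at −1.13 (adjusted p = 0.000276 by edgeR), where 12.9% of all genes were called lower. The summed RPA level differed little from bFF, 444 RPM there and 471, 507 and 438 RPM after fusion.

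Nucleotide supply held the most called genes, 3 of 5 higher, against 4.37% of all genes tested. RRM2, the small subunit of ribonucleotide reductase whose level limits the enzyme to S phase (chromosome 11, start 87466580), stood at 24.7 RPM in bFF and at 208, 198 and 366 RPM in heterokaryons. Every heterokaryon library was above bFF and the 72 h library was highest, with a log2 change of 3.50 ± 0.50 and an adjusted p of 0.00144 by edgeR. Its large partner RRM1, which is less bound to S phase, went from 70.6 RPM to 102, 125 and 159 RPM, a log2 change of 0.99 ± 0.37 that did not pass (adjusted p = 0.126 by edgeR). TK1, the cytosolic thymidine kinase of dividing cells (chromosome 19, start 54596647), rose from 14.4 RPM to 111, 67.6 and 79.1 RPM, a log2 change of 2.66 ± 0.43 (adjusted p = 0.00319 by edgeR). DUT, which keeps uracil out of DNA by cleaving dUTP (chromosome 10, start 62284071), rose from 42.9 RPM to 137, 236 and 230 RPM, a log2 change of 2.35 ± 0.43 (adjusted p = 0.00595 by edgeR). TYMS, which makes thymidylate, had the smallest change, with 132 RPM in bFF and 238, 163 and 169 RPM (log2 change 0.62, adjusted p = 0.255 by edgeR). RRM2 is listed as 2 transcripts with the same start, and both were higher in each heterokaryon library: 34 and 31 reads in bFF against 97 and 107 at 24 h, then 124 and 140, and 265 and 300, at the later times.

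Genes that finish the lagging strand or pack the new DNA gave no call among 5 tested, and none had an unadjusted p under 0.05 by edgeR. CHAF1A, the large subunit of the histone chaperone CAF-1, went from 1.52 RPM, 4 reads, to 16.3, 3.75 and 7.78 RPM (log2 change 2.59 ± 1.26, adjusted p = 0.235 by edgeR). FEN1, the nuclease that trims Okazaki fragments, read 9.87 RPM in bFF and 35.6, 6.01 and 15.6 RPM, so it lay below bFF at 48 h. CHAF1B, the middle subunit of CAF-1, stood at 7.97 RPM in bFF and at 6.11, 6.76 and 9.73 RPM in heterokaryons (log2 change 0.05, adjusted p = 0.978 by edgeR).

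MYBL2, a transcription factor that works with E2F-bound promoters and later with the mitotic programme, was the only regulator tested (chromosome 13, start 72939569). It stood at 3.04 RPM in bFF, 8 reads, and at 18.3, 52.6 and 57.1 RPM in heterokaryons. The log2 change of 3.93 ± 0.77 was the largest of the 38 (adjusted p = 0.00875 by edgeR). The mESC control lent it 7 reads, from which 27.4% of its 24 h reads, 5.02% at 48 h and 4.24% at 72 h were estimated to be wrongly assigned. RRM2, TK1 and DUT were called in all 12 alternatives, the filter on bFF included. MYBL2, MCM5, MCM4 and CDC45 had passed the filter only through heterokaryons, so the filter on bFF removed them. In the other alternatives that could be run, MYBL2 was called in 11, subtraction of wrongly assigned reads included, MCM5 in 11 and MCM4 in 10. E2F1 had 0, 3, 0 and 3 reads in bFF and at 24, 48 and 72 h, and E2F2 is not in the bovine table.

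**Figure D2:**
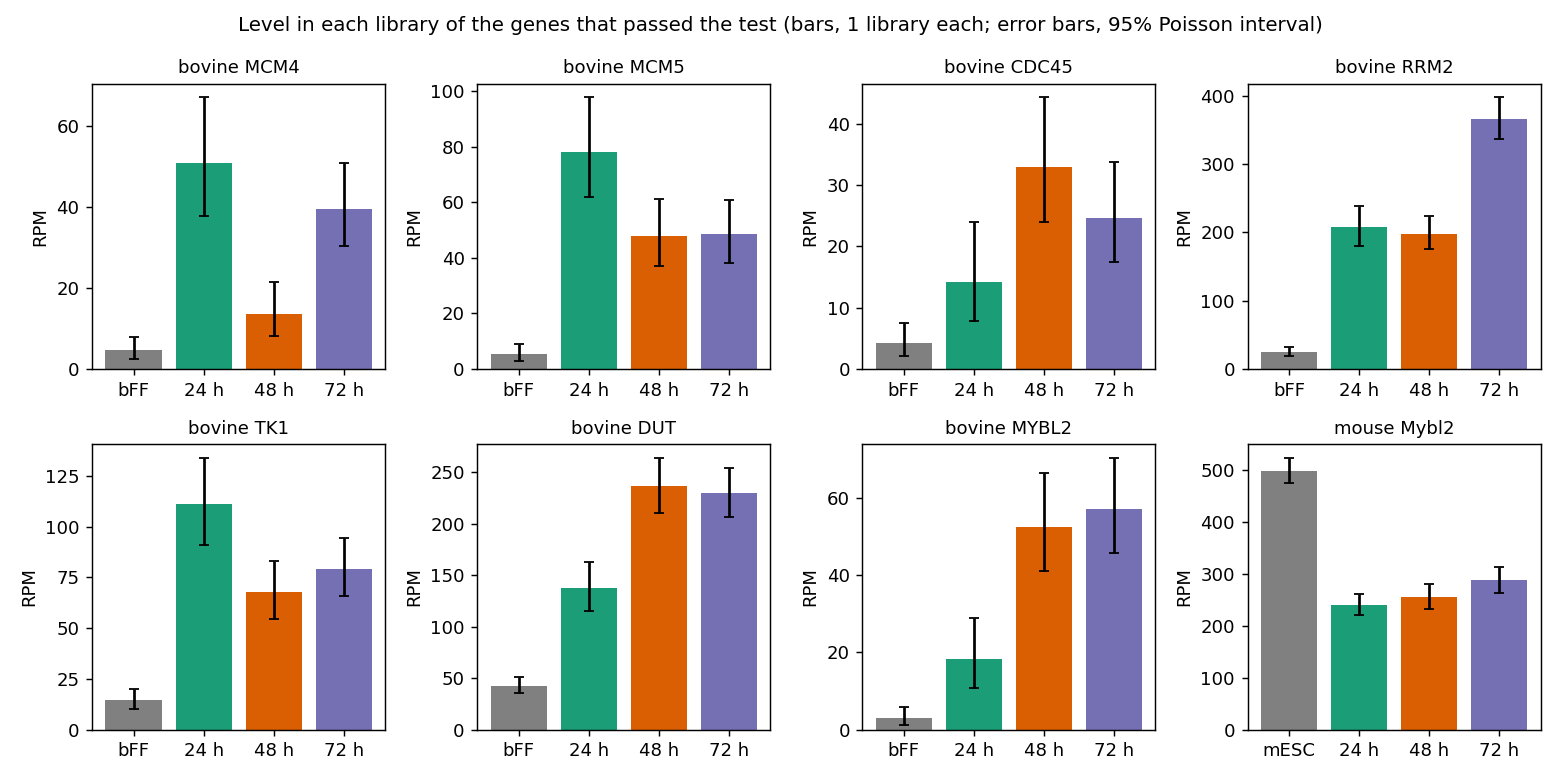
Level of each gene that passed the edgeR test, in RPM, in the control and in the heterokaryon libraries at 24, 48 and 72 h, 1 library per bar with its 95% Poisson interval for counting error only. The 7 bovine genes stand lowest in bFF, RRM2 at 24.7 RPM against 198 to 366 RPM, and mouse Mybl2 stands highest in mESC.

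In CPM, 22 of the 38 bovine genes tested were highest among heterokaryons at 24 h, 2 at 48 h and 14 at 72 h. Of all genes tested, 36.7%, 27.7% and 35.6% were highest at these times. In RPM, PCNA, MCM7 and RPA2 were highest at 24 h instead of 72 h. Each time is 1 library, and no difference between roles was tested. Helicase loading genes had 6 of 7 at 24 h in CPM, all but MCM7, and clamp and loader genes 4 of 5, all but PCNA. The helicase loading sum went from 238 RPM in bFF to 506, 249 and 297 RPM, so it was near the bFF level at 48 h, and the clamp and loader sum went from 294 RPM to 785, 446 and 544 RPM. The nucleotide sum was high at all times, with 284 RPM in bFF and 796, 790 and 1003 RPM after fusion. A contrast list of mitosis genes was higher at each later time, from 363 RPM in bFF to 977, 1721 and 1803 RPM. Of its 19 tested genes 10 rose by edgeR, against 4.37% of all genes tested. Of those, KIF11, BUB1, KIF20A and CDC20 were under 10 CPM in bFF and passed the filter only through heterokaryons.

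At single times only sizes could be compared, with no test, as at least 2-fold on log2(CPM + 1) among genes with 10 CPM or more in the heterokaryon or control library. At 24 h, 21 of 35 bovine replication genes were 2-fold higher than in bFF and 0 were lower, against 13.4% higher and 14.8% lower of all genes. At 48 h, 12 of 30 were higher and RPA1 was lower, against 11.4% and 15.1%. At 72 h, 17 of 36 were higher and RPA1 and ORC6 were lower, against 12.7% and 15.5%. Median log2 differences were 1.47, 0.79 and 0.92, where the medians of all genes were −0.09, −0.08 and −0.03. Of the genes counted as higher, 12, 7 and 9 were under 10 CPM in bFF, entered through the heterokaryon library and could not have counted as lower. Among the 22 genes at 10 CPM or more in bFF, a filter chosen after seeing the data, 9 were 2-fold higher and 0 lower at 24 h, against 7.17% and 16.2% of all genes. At 48 h these were 5 and 1, against 6.69% and 16.4%, and at 72 h 8 and 2, against 8.06% and 16.8%. The genes higher at all 3 times under that filter were DUT, RFC4, RRM2 and TK1. Between 24 and 72 h, MYBL2 alone of 38 went up 2-fold and MCM3 and CDC6 went down 2-fold, against 8.16% and 8.54% of all genes. The median difference between these times was −0.25, against 0.05 over all genes.

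**Figure D3:**
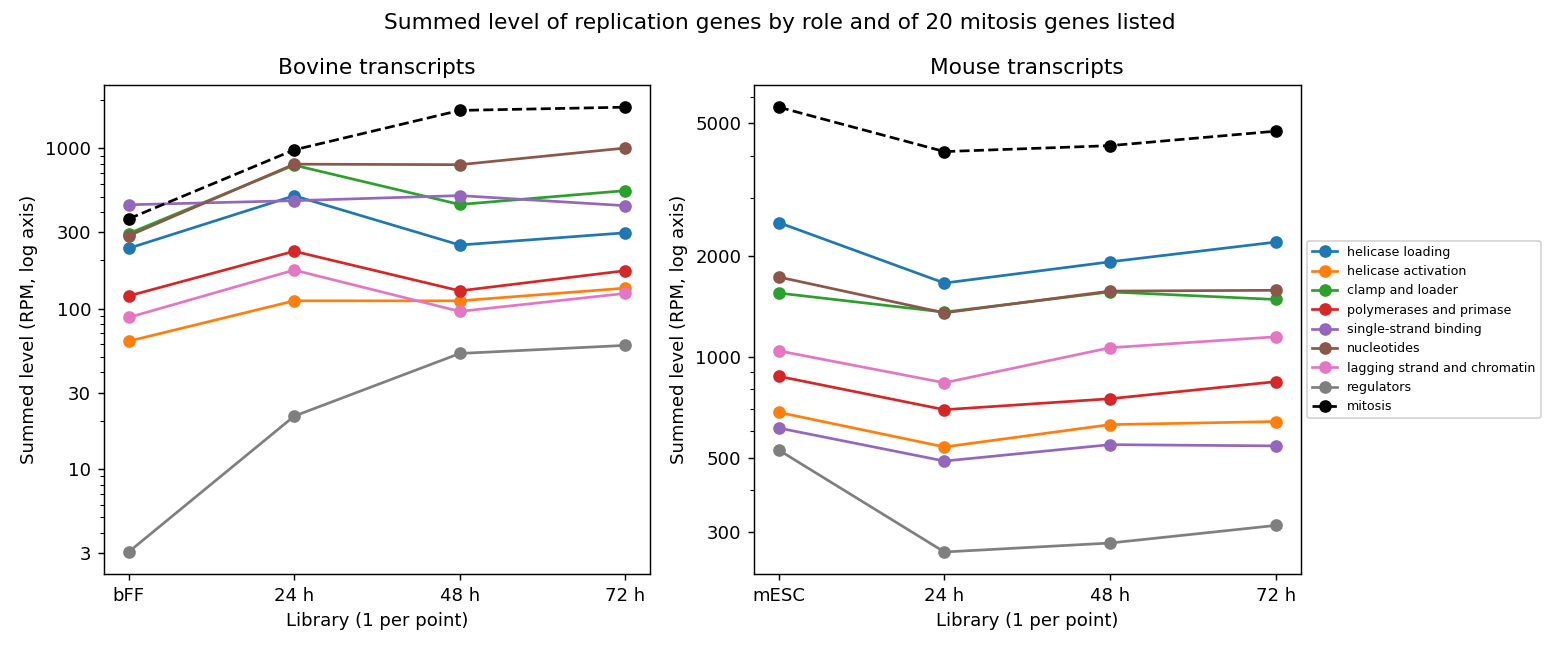
Summed level of the replication genes by role and of the mitosis list (dashed), in RPM on a log axis, in each control and heterokaryon library, for bovine (left) and mouse (right) transcripts with separate vertical scales. Bovine helicase loading and clamp genes are highest at 24 h (506 and 785 RPM), nucleotide and mitosis genes at 72 h, and the mouse sums dip at 24 h.

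A further 82 genes of DNA replication outside the 47 names, grouped in 6 lists, gave fewer calls in the bovine table. Of 62 tested, 5 rose and none fell by edgeR, against the same 4.37% and 4.77% of all genes, and the median log2 change was 0.54. At an unadjusted p under 0.05 by edgeR, 19 were higher and 2 lower, against 834 and 942 of all 7376 genes tested. DESeq2 called 5 of the 62 higher and 0 lower. The 5 included CCNA2, the S phase cyclin (2.47 ± 0.50, adjusted p = 0.0102 by edgeR), and its partner kinase CDK2 (1.85 ± 0.52, 0.0451). The histone chaperone ASF1B stood at 2.42 ± 0.54 (adjusted p = 0.0151 by edgeR). The others were NME1 (2.34 ± 0.37, adjusted p = 0.00239 by edgeR) and DCK (2.45 ± 0.50, 0.0102), kinases of nucleotide supply. CCNA2 stood at 32 reads in bFF and at 42, 88 and 118 in the heterokaryons, whose libraries held fewer reads in all. CDK2, ASF1B and DCK were under 10 CPM in bFF (7.91, 6.83 and 7.19 CPM). They passed the filter only through heterokaryons, which favours a rise. The largest changes that did not pass were those of the fork protection gene TIMELESS (2.49, adjusted p = 0.242 by edgeR), the hemimethylated DNA reader UHRF1 (2.31, 0.087), the recombination genes RAD54L (2.24, 0.22) and FANCI (2.03, 0.0645), and the CDK inhibitory kinase WEE1 (1.97, 0.0622). TIMELESS, UHRF1, RAD54L and FANCI, but not WEE1, were likewise under 10 CPM in bFF and entered the test only through heterokaryons. Of the licensing list, ORC4 stood at −0.98 (adjusted p = 0.0889 by edgeR) and WDHD1 at 1.11 (0.2), and none of its 10 tested genes passed. TFDP2, a partner of E2F factors, stood at −0.98 (adjusted p = 0.342 by edgeR). The log2 change was below 0 for 7 of the 13 E2F and RB genes tested, and for 3795 of all 7376 genes tested.

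Replication transcripts of the mouse nucleus were near or below their mESC level. The 47 mouse genes summed to 9556 RPM in mESC and to 7205, 8338 and 8769 RPM in heterokaryons at 24, 48 and 72 h. Relative to mESC these were 0.754 (95% counting interval 0.74 to 0.768), 0.873 (0.856 to 0.89) and 0.918 (0.90 to 0.935), all below 1 and nearest to it at 72 h. Of the 46 mouse genes past the filter, all of them through mESC too, Mybl2 fell and none rose by edgeR, against 0.406% lower and 0.576% higher of 8857 genes. At an unadjusted p under 0.05 by edgeR, 12 were lower and none higher, against 911 and 544 of all 8857 genes. DESeq2 called 1 of the 46 lower and 0 higher. Changes were below 0 for 34 and above 0 for 12, with a median of −0.22 against −0.09 over all genes. These signs depended on the scaling: DESeq2's size factors gave 28 below and 18 above, with medians of −0.12 and 0.02.

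Mouse Mybl2 (chromosome 2, start 163054635 on mm10) stood at 499.9 RPM in mESC and at 241, 255 and 289 RPM in heterokaryons. All 3 were below mESC, with a log2 change of −0.98 ± 0.19 and an adjusted p of 0.0236 by edgeR, which was lost without the 48 h library (0.0952). Rpa1 came next, with 187 RPM in mESC and 82.4, 103 and 118 RPM (log2 change −0.93 ± 0.24, adjusted p = 0.0819 by edgeR). Rfc5 stood at 364 RPM and at 210, 223 and 236 RPM (−0.75 ± 0.20, adjusted p = 0.0835 by edgeR). Mcm7 stood at 384 RPM and at 219, 221 and 277 RPM (−0.73 ± 0.21, adjusted p = 0.105 by edgeR). Each of these 4 was below mESC in every heterokaryon library. Leaving out either the 24 h or the 72 h library let Rpa1, Rfc5 and Mcm7 pass beside Mybl2, 4 genes lower in all, where 3.03% and 2.67% of all mouse genes were called lower.

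The other mouse genes with large changes in their role did not pass either. Rrm1 had 159 RPM in mESC and 65.9, 106 and 113 RPM in heterokaryons, and Rrm2 had 732 RPM and 480, 583 and 684 RPM, with log2 changes of −0.79 and −0.37 (adjusted p = 0.179 and 0.368 by edgeR). Orc1 went from 67.6 RPM to 36.3, 30.04 and 56.1 RPM (−0.77, adjusted p = 0.27 by edgeR). Mcm10, which helps to start the helicase, went from 87.3 RPM to 52.3, 63.0 and 58.8 RPM, and Cdc45 from 141 RPM to 77.9, 97.6 and 124 RPM (−0.63 and −0.54, adjusted p = 0.263 and 0.318 by edgeR). Chaf1b stood at 246 RPM and at 130, 171 and 186 RPM, and Fen1 at 113 RPM and at 59.3, 76.8 and 95.3 RPM (−0.65 and −0.60, adjusted p = 0.188 and 0.303 by edgeR). Prim2, the large primase subunit, stood at 93.4 RPM and at 45.7, 62.4 and 73.0 RPM, and Pola2 at 104 RPM and at 79.5, 59.5 and 83.9 RPM (−0.68 and −0.52, adjusted p = 0.266 and 0.336 by edgeR). E2f1 stood at 25.2 RPM and at 13.6, 18.5 and 21.8 RPM (−0.54, adjusted p = 0.504 by edgeR). In all of these the mESC library was above every heterokaryon library. Rfc1 stood above mESC, 201 RPM against 222, 239 and 241 RPM, with a log2 change of 0.18 (adjusted p = 0.708 by edgeR). Pcna, at 533 RPM in mESC and 469, 589 and 523 RPM, and Rpa2, at 250.4 RPM and 208, 251 and 249 RPM, overlapped their control. E2f2 had 6 reads in mESC and 16, 7 and 6 in heterokaryons and stayed under the filter.

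By time, Rrm1, Rpa1, Mybl2 and Prim2 were at least 2-fold below mESC at 24 h and no gene was above, 4 of 46 lower against 7.68% lower and 8.34% higher of all mouse genes. At 48 h Orc1 alone was 2-fold lower and 0 were higher, against 6.74% and 5.39%. At 72 h none was past 2-fold either way, against 4.84% lower and 3.51% higher. Median log2 differences were −0.49, −0.32 and −0.13, where those of all mouse genes were −0.09, −0.13 and −0.12. Between 24 and 72 h the median difference was 0.22 against −0.02 over all genes, with 37 of 46 genes above 0 and none past 2-fold, against 3.41% higher and 6.38% lower. In CPM, the highest heterokaryon level fell at 24 h for 5 genes, at 48 h for 17 and at 72 h for 24. Of all mouse genes tested, 37.4%, 29.3% and 33.3% had theirs at these times. In RPM, Rfc1 was highest at 72 h instead of 48 h. Of all 8857 mouse genes tested, 544 were higher than in mESC and 911 lower at an unadjusted p under 0.05 by edgeR. Of the 82 further replication genes, 76 were tested, 3 were higher and 10 lower at that limit, and none passed by edgeR or by DESeq2. Their largest changes were those of Fanci (−1.05, adjusted p = 0.148 by edgeR), Lin37 (−1.01, 0.143), Cdk2 (−1.01, 0.0987), Rad54l (−0.99, 0.128) and, upward, the clamp unloader Atad5 (0.90, 0.228) and the maintenance methyltransferase Dnmt1 (0.77, 0.188). In the other lists the larger changes were those of Atrip (−0.84, 0.326), Dck (−0.78, 0.219), Gart (−0.64, 0.191), Topbp1 (0.43, 0.474), Orc5 (−0.42, 0.433) and Rbbp4 (−0.34, 0.508), with edgeR adjusted p-values second. Plk1 fell as 1 of the 20 mitosis genes (−1.07 ± 0.22, adjusted p = 0.0328 by edgeR). Over all mouse genes tested, 0.406% were called lower.

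Changes in the 2 nuclei of the same cells were set side by side. The tables were scaled separately and each species had its own control, so changes are compared here only by sign, on TMM-scaled CPM. Of 38 genes tested in both, 17 had the bovine gene above bFF and the mouse gene below mESC in every heterokaryon library, against 13% of 5635 genes. In RPM, where mESC and some heterokaryon values overlap, GINS4, POLD1, POLD2, POLE2 and RPA2 drop out, which leaves MCM4, MCM5, MCM7, CDC6, CDC45, GINS1, RFC5, POLA2, RRM1, RRM2, TYMS and MYBL2, 12 of 38 against 9.97%. MCM4, MCM5, CDC6, CDC45, GINS4, POLA2, POLD1, POLE2 and MYBL2 passed the bovine filter only through heterokaryons, which favours that direction. Among the 22 genes at 10 CPM or more in both controls the count was 8 on TMM-scaled CPM, against 11.7% of 4744 genes, and 6 in RPM, against 8.73%. The reverse held on both scales for ORC6 alone, with a mouse log2 change of 0.17. On TMM-scaled CPM the reverse held for 7.9% of all genes with the wider filter and 7.44% with the narrower one. In RPM these shares were 10.1% and 9.7%, so the balance of the 2 directions over all genes depended on the scaling. RPA1 was below its control in every library of both species. The difference between species was not tested.

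**Figure D4:**
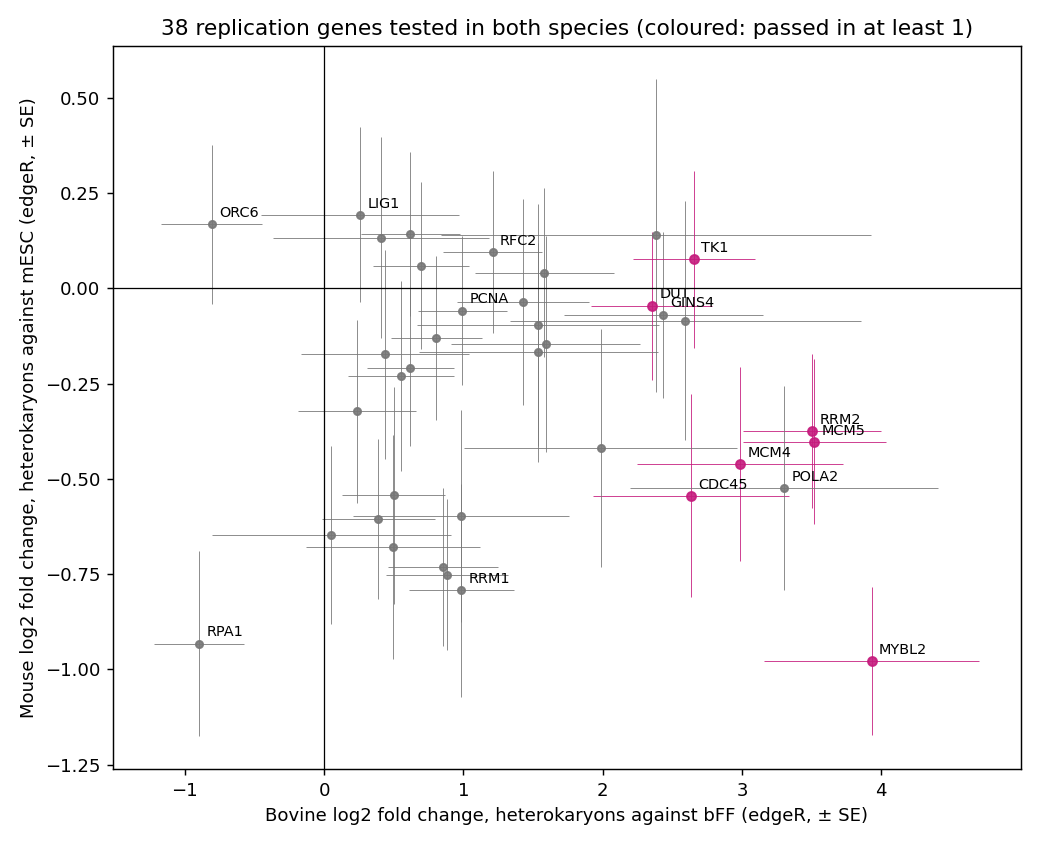
Log2 fold change of heterokaryons against bFF (horizontal) and against mESC (vertical) for the 38 replication genes tested in both species, with edgeR standard errors as bars and genes that passed in at least 1 species coloured. MYBL2 lies farthest to the lower right, at 3.93 and −0.98, and ORC6 and RPA1 lie left of 0.

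How much of each replication transcript came from the bovine nucleus could be read within a library. Over the 41 shared names, bovine reads were 16.2% (95% exact binomial interval 15.7 to 16.7), 19.7% (19.1 to 20.3) and 22.7% (22.1 to 23.3) of bovine plus mouse reads at 24, 48 and 72 h. Over all 12058 names in both tables the bovine share was 31.3%, 46.3% and 48.5%. In the unfused controls the 41 names summed to 1534 RPM in bFF and 8647 RPM in mESC. They were thus a smaller part of bovine than of mouse reads without fusion too. Intervals cover counting error only, and reads were not corrected for transcript lengths, which differ between the tables, so shares of different genes are not levels. The median share of single replication genes was 11.4%, 12.6% and 14.2%, and 4, 2 and 3 of the 41 lay above the share of all names. That share pools reads, so genes with many reads weigh most in it. Shares of single genes over all names were not computed, so these counts have no background.

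Roles differed in share, with the same limit of transcript lengths. RPA genes were at 28.1%, 41.6% and 40.4% bovine, and nucleotide genes at 19.2%, 27.8% and 34.7%. Helicase loading genes were at 12.8%, 10.9% and 11.8%, and lagging strand and chromatin genes at 7.76%, 6.48% and 8.34%. The mitosis list went from 9.12% to 24.2% and 24.8%. RPA3 (55.6% at 48 h and 53.8% at 72 h), RRM1 (54.2% at 72 h) and GINS1 (52.5% at 72 h) were the only genes with more bovine than mouse reads in a library, and the intervals of RRM1 (49.5 to 58.9) and GINS1 (46.0 to 58.9) included equal shares. LIG1, the ligase of the lagging strand, was among the lowest, with 1.47%, 3.56% and 4.22%.

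**Figure D5:**
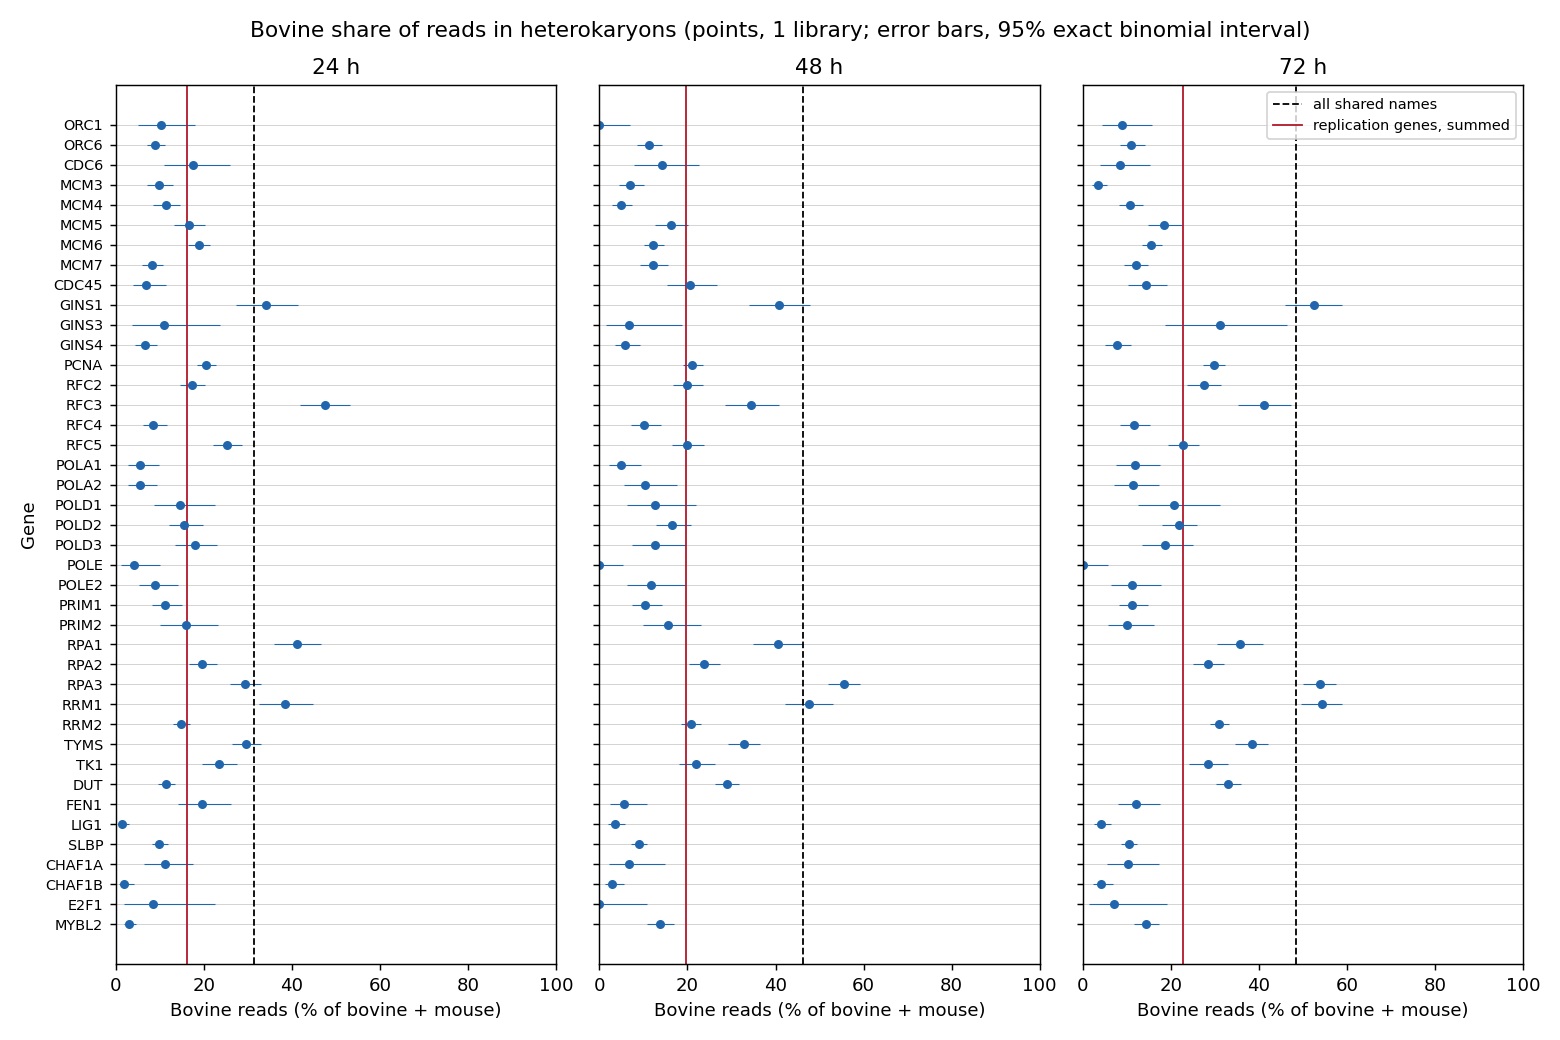
Bovine reads as a percentage of bovine plus mouse reads for each replication gene in the heterokaryon libraries at 24, 48 and 72 h, 1 library per panel, with exact 95% binomial intervals. The red line marks the summed replication genes (16.2%, 19.7% and 22.7%) and the dashed line all shared names (31.3%, 46.3% and 48.5%), both pooled over reads. Most of the replication genes lie left of the dashed line.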

How the data were processed

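PolyA RNA of 200 sorted cells per library was made into cDNA in 14 cycles of the SMART-Seq v4 kit, per the labels' protocols. The authors deposited whole read counts per RefSeq transcript in a bovine and a mouse table, and beside them RPM, which per the file headers and a check equalled each count scaled by its column total. The submitters' processing notes name bosTau8, GRCm38 and mm10. Aligner, counter and the way species were separated are not given in the sources consulted. Use of strand is not stated either, which leaves genes that overlap or have near-identical copies uncertain. The value 1 occurs in neither table. The mouse table's row of totals was dropped, and of the names turned into dates, RefSeq numbers gave back 23 of 23 bovine and 57 of 60 mouse ones. Starts are the leftmost base, counted from 1.

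Summing by name turned 14234 bovine transcripts into 13923 genes, and 35814 mouse ones into 24543. The 3 heterokaryon libraries were set against 1 control in edgeR 4.0.16 under R 4.3.3 (TMM scaling, 10 CPM filter, quasi-likelihood test, threshold 0.05 on Benjamini-Hochberg adjusted p). The script was tested on simulated data. Single times were compared by size on log2(CPM + 1), a scale that understates changes of low genes. Reads of the other species' control, scaled to each heterokaryon library, estimated wrong assignment. Alternatives were DESeq2 1.42.0, other scalings, filters, pseudocounts and fold limits, subtraction of wrongly assigned reads, the highest transcript per name and leaving out libraries. The genes and lists were chosen with earlier results of these data known. Values are given for genes that passed and, in each role, for the 2 largest and the smallest bovine change and the 2 largest mouse changes. Of each other replication list, genes that passed and the 2 largest changes are named. Other names were added after their values were seen. Tables and plots were made with pandas 2.3.3, matplotlib 3.10.9, scipy 1.17.1 and numpy 2.4.6 under Python 3.11.15.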

Additional observations from a re-analysis of the deposited data

Results flagged for a closer look

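For 5 of the genes that passed the test in either species, every heterokaryon library was above bFF for the bovine gene and below mESC for the mouse gene. The bovine and mouse log2 changes were 2.99 and −0.46 for MCM4, 3.52 and −0.40 for MCM5, 2.64 and −0.55 for CDC45, 3.50 and −0.38 for RRM2, and 3.93 and −0.98 for MYBL2. Of the mouse changes only that of Mybl2 passed, and the others had adjusted p-values of 0.318 to 0.375 by edgeR. Mouse Mcm4 at 72 h was 0.932 of mESC, with a counting interval of 0.836 to 1.04 that included no change. MCM4, MCM5, CDC45 and MYBL2 passed the bovine filter only through heterokaryons. The difference between the nuclei was not tested.

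A few replication genes had more reads from the other species' control than the floor of 3 reads. In the bovine table the mESC library had 6 reads on DUT, 8 on MCM7 and 7 on MYBL2. In the mouse table the bFF library had 6 reads on Gins1, 30 on Gins2 and 4 on Mcm3.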

How the results depend on the processing

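No paired analysis was possible because each group is a single library. None of the genes with an unadjusted p under 0.05 changed sign in the alternatives run for it. Signs over all genes did shift: the median log2 change went from −0.09 to 0.02 in mouse and from −0.03 to 0.02 in bovine with DESeq2, and bovine calls from 322 higher and 352 lower to 347 and 184. The count of bovine replication genes called higher ran from 7 to 15 when 1 heterokaryon library was left out and was 4 with the filter on bFF, and the count called lower ran from 0 to 2. Over all bovine genes, leaving out a library gave 229 to 830 higher and 223 to 919 lower, DESeq2 gave 184 lower and a 50 CPM filter 211 lower. Of the further bovine replication genes, 4 to 14 were higher and 0 to 2 lower with a library left out, 3 were higher at 50 CPM and 2 with the filter on bFF. Mouse replication genes called lower ran from 0 to 4 with a library left out, and further mouse replication genes from 0 to 2 higher and 0 to 4 lower. Over all mouse genes the calls higher were 78 with RLE scaling, 90 by DESeq2, 97 with no filter, 27 at 50 CPM, 29 with the filter on mESC and 50 to 222 with a library left out. Those lower were 70 with no filter, 22 at 50 CPM, 55 with the highest transcript per name and 16 to 258 with a library left out.

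By time, a 4-fold limit left 11, 6 and 10 bovine genes higher at 24, 48 and 72 h and 0 lower at 48 and 72 h, 0 either way between 24 and 72 h, and 0 mouse genes lower at 24 and 48 h. The filter on bFF left 9, 5 and 8 bovine genes 2-fold higher. A 50 CPM filter left 8, 5 and 9 bovine genes higher and 0 lower between 24 and 72 h. At 48 h, 0 bovine genes were lower with a pseudocount of 5 CPM and 2 with library totals. Between 24 and 72 h, 7 were lower with library totals and 2 higher with the highest transcript per name, which also gave 2 mouse genes lower at 48 h and bovine shares of 19.0%, 22.7% and 25.4%. The percent of all genes past the fold at these settings is not given here, except with the filter on bFF. The other counts by time therefore stand without a background. Low bovine counts, single libraries and unreplicated controls limit these results, and the causes of these shifts were not tested.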
